A study of Mus musculus with 6 samples.

Results

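The genes described are Nf2 and the core kinases of the Hippo pathway with their scaffolds and adaptors, measured by RNA-seq of whole mouse ovaries. The 10 genes were chosen by symbol, Nf2, Wwc1, Frmd6, Stk3, Stk4, Sav1, Lats1, Lats2, Mob1a and Mob1b, and all 10 were found among the 44788 genes of the count table. There were 3 Bnc1+/+ libraries, called wild type in the labels (replicates 1, 4 and 7), and 3 Bnc1tr/tr libraries (replicates 1, 2 and 3). All mice were C57BL/6 J and 8 weeks old, and no treatment is given for either genotype. Bnc1tr/tr mice are homozygous for a small germline deletion in Bnc1, which encodes the zinc finger protein basonuclin 1, and the deletion shifts the reading frame to an early stop. Every cell of the mouse therefore carries the allele, not the oocyte alone. The study calls the 3 samples of a group biological replicates and compared littermates, but the labels name no litter and do not say whether a library is 1 mouse or a pool.

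In the Hippo pathway, a chain of kinases restrains the transcriptional co-activators YAP (gene Yap1) and TAZ (gene Wwtr1). The kinases MST2 (gene Stk3) and MST1 (gene Stk4), held by the adaptor SAV1, phosphorylate and activate LATS1 and LATS2, which work together with MOB1A or MOB1B. The LATS kinases phosphorylate YAP and TAZ, which then stay in the cytoplasm and do not act with the TEAD factors in the nucleus. Merlin, the product of Nf2, KIBRA, the product of Wwc1, and FRMD6 sit upstream at the membrane and promote this chain, and Merlin can bring LATS kinases to the membrane. In the ovary the pathway is known for its part in follicle growth. RNA levels do not show phosphorylation, on which this pathway runs.

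The study asked whether BNC1 acts on Nf2 through its promoter, so the stretch upstream of the outer of 2 RefSeq starts of Nf2 is shown, beside that of Wwc1, the other gene called below. Both are from RefSeq (GRCm38.p6), read 5′ to 3′ on the gene's strand and cover the 250 bases before the start. Capitals mark the GC box GGGCGG or its reverse complement CCGCCC.
Nf2: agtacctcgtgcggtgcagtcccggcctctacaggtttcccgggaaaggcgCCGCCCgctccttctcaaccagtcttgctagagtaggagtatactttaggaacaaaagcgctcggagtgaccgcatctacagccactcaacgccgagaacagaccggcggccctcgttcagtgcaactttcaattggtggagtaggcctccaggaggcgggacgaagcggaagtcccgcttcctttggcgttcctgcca
Wwc1: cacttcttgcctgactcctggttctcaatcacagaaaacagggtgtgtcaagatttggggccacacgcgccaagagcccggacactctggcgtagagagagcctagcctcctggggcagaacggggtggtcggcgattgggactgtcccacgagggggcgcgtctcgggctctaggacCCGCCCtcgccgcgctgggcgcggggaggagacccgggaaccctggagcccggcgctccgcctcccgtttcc
The Nf2 stretch is chr11:4849545-4849794 and the Wwc1 stretch is chr11:35980528-35980777, both on the minus strand. Each held 1 GC box and no TEAD motif (GGAATG, reverse complement CATTCC), with both strands searched. The other RefSeq start of Nf2, within the gene, has its 250 bases at chr11:4833136-4833385, with no match to either motif and a GC content of 33.6%. The printed stretch lies just outside the GENCODE M21 gene, whose ends follow, and the other lies inside it. The GC content was 59.2% for the printed Nf2 stretch and 67.2% for Wwc1, against a median of 52.4% over all promoters. RefSeq promoter entries were matched for 9 of the 10 genes, all but Stk3, with 11 entries in all, since Nf2 and Lats2 have 2 each. A GC box was present in 8 of the 11 entries and in 32.7% of all 32851 entries of the same length. These 8 entries had a GC content of 59.2% to 79.2%, above the median of 52.4%, and the shares were not matched for GC content. The TEAD motif was found in 2 of the 11, those of Sav1 and Mob1a, and in 12.6% of all entries. Matches of the 2 motifs did not overlap, and a match is a string of letters, not a bound site. Nf2 lies on chromosome 11 from 4765845 to 4849536 and Wwc1 on the same chromosome from 35838400 to 35980527 (GRCm38, GENCODE M21, minus strand). Of the other genes, Frmd6 and Sav1 lie on chromosome 12, Stk3 on 15, Stk4 on 2, Lats1 on 10, Lats2 on 14, Mob1a on 6 and Mob1b on 5.

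The 6 libraries held between 25247770 and 34406296 counts, and 19423 genes passed the low-count filter. Bnc1 itself did not separate the genotypes. It stood at 13.9, 13.4 and 13.1 CPM (read counts relative to the library's total as scaled by edgeR) in the Bnc1+/+ ovaries and at 18.7, 13.7 and 11.5 CPM in the Bnc1tr/tr ovaries, with a log2 fold change of 0.12 (edgeR, adjusted p = 0.733), and since a small deletion does not remove the transcript from a gene count, this is no check of the genotype. Ovarian cell type markers were detected, but the summed levels of 2 of the 11 marker lists did not overlap between genotypes. The 10 luteal cell markers (such as Star and Lhcgr) summed to 23410 to 28110 CPM in Bnc1+/+ and to 7357 to 12730 CPM in Bnc1tr/tr, with 8 of 10 called lower. The 7 endothelial markers summed to 492 to 613 CPM against 329 to 363 CPM, with 5 called lower and 1 higher. Of the 10 oocyte markers 4 were called higher (median log2 fold change 0.55), with sums of 542 to 703 CPM against 672 to 1028 CPM that overlapped. In whole ovaries, fewer cells of a type and less RNA per cell cannot be told apart. Bnc1tr/tr replicate 1 also had the highest theca sum (516 CPM, against 166 to 273 CPM in Bnc1+/+) and Bnc1tr/tr replicate 3 the highest oviduct sum (577 CPM, against 48.1 to 180 CPM).

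The first question is whether the RNA of any of the 10 genes differed between Bnc1tr/tr and Bnc1+/+ ovaries. Nf2 was lower, at 78.8% of its Bnc1+/+ mean, Wwc1 was higher, at 148% of its mean, and the other 8 genes did not pass the test. A gene was called when its adjusted p was under 0.05 in the quasi-likelihood test of edgeR, adjusted by Benjamini-Hochberg over all 19423 genes. By this rule 2 of the 10 genes were called, where 7.06% of all genes tested were called (1372 genes). Of the 10, 1 was lower (4.19% of all genes were called lower) and 1 was higher (2.88% of all genes). The 3 CPM values of each genotype did not overlap for 3 of the 10 genes, Nf2, Wwc1 and Frmd6, which is close to the 30.8% seen over all genes. Log2 fold changes were negative for 5 and positive for 5 of the 10 (Sav1 and Mob1a turned positive with scaling by library totals alone), and their median was -0.01, beside 0.02 over all genes tested. All 10 genes passed the low-count filter in both genotypes, the smallest value being 122 counts and the largest 5196 counts in a library.

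**Figure D1:**
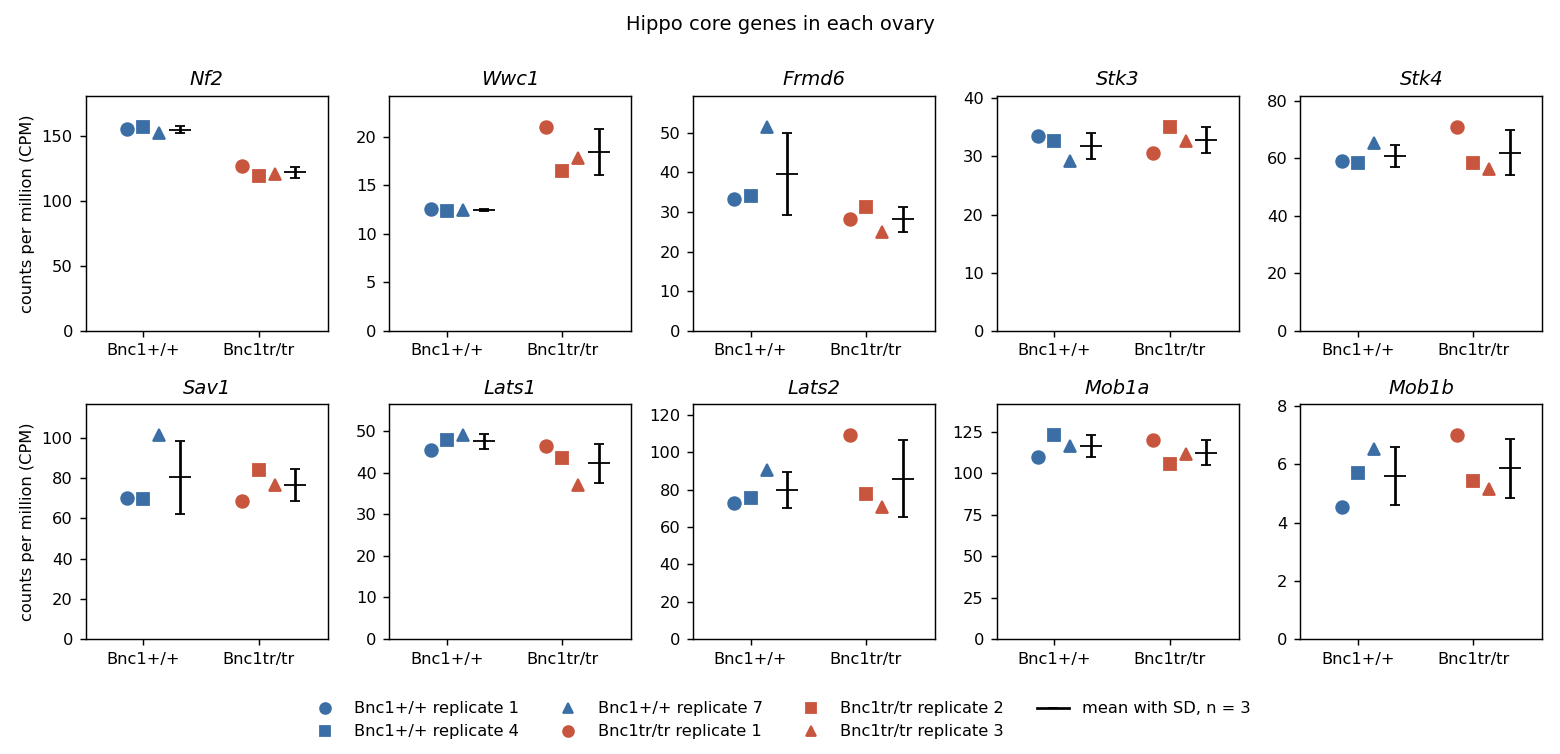
CPM of each gene in each of the 6 ovaries (symbols: blue, 3 Bnc1+/+; orange, 3 Bnc1tr/tr), with the mean and SD in black and axes starting at 0. Nf2 lies at 152 to 157 CPM in Bnc1+/+ and 119 to 127 CPM in Bnc1tr/tr with no overlap, and Wwc1 lies higher in every Bnc1tr/tr ovary. Frmd6 and Sav1 stand out in Bnc1+/+ replicate 7, and Lats2 in Bnc1tr/tr replicate 1.

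Nf2 (ENSMUSG00000009073.16), the gene of the scaffold Merlin, was among the more strongly read of the 10. It stood at 155.5, 157 and 151.9 CPM in the Bnc1+/+ ovaries (155 ± 2.6, SD, n = 3) and at 126.6, 119.1 and 120.3 CPM in the Bnc1tr/tr ovaries (122 ± 4.07, SD, n = 3). Every Bnc1tr/tr ovary was below every Bnc1+/+ ovary, and the gap between the genotypes was wider than the spread within either. The log2 fold change was -0.34 with a standard error of 0.073, and its 95% interval ran from 0.701 to 0.885 as a fold (edgeR, adjusted p = 0.0336).  It was not called when libraries were scaled by their totals alone (log2 fold change -0.24, adjusted p = 0.0796), a scaling under which the median of all genes moved from 0.02 to 0.12. With 5 ovaries, Nf2 was called without Bnc1tr/tr replicate 1 (adjusted p = 0.0372) and not called without Bnc1+/+ replicate 1, 4 or 7 or Bnc1tr/tr replicate 2 or 3 (adjusted p between 0.0737 and 0.131), while its log2 fold change stayed between -0.37 and -0.33. The luteal and endothelial marker sums were lower in the same 3 ovaries, and their part in the Nf2 result was not tested.

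Wwc1 (ENSMUSG00000018849.6) encodes KIBRA, a scaffold that works beside Merlin. It stood at 12.5, 12.4 and 12.4 CPM in Bnc1+/+ ovaries (12.4 ± 0.0743, SD, n = 3) and at 21, 16.5 and 17.8 CPM in Bnc1tr/tr ovaries (18.4 ± 2.34, SD, n = 3). The Bnc1+/+ ovaries were nearly level, and the Bnc1tr/tr ovaries were higher and more spread out, with replicate 1 the highest. The log2 fold change was 0.57 with a standard error of 0.119, and its 95% interval as a fold ran from 1.22 to 1.79 (edgeR, adjusted p = 0.033). Wwc1 rested on 337 to 591 counts per library, and no 50-base window of its longest coding transcript was found in another gene. It was called under every other scaling, filter and tool tried (adjusted p between 0.00265 and 0.0393). With 5 ovaries it was called without Bnc1tr/tr replicate 2 (adjusted p = 0.0318) and not without Bnc1+/+ replicate 1, 4 or 7 or Bnc1tr/tr replicate 1 or 3 (adjusted p between 0.0551 and 0.134). The size was smallest without Bnc1tr/tr replicate 1, at a log2 fold change of 0.46. The luteal and endothelial sums moved the other way and 4 of 10 oocyte markers the same way, and their part in the Wwc1 result was not tested.

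**Figure D2:**
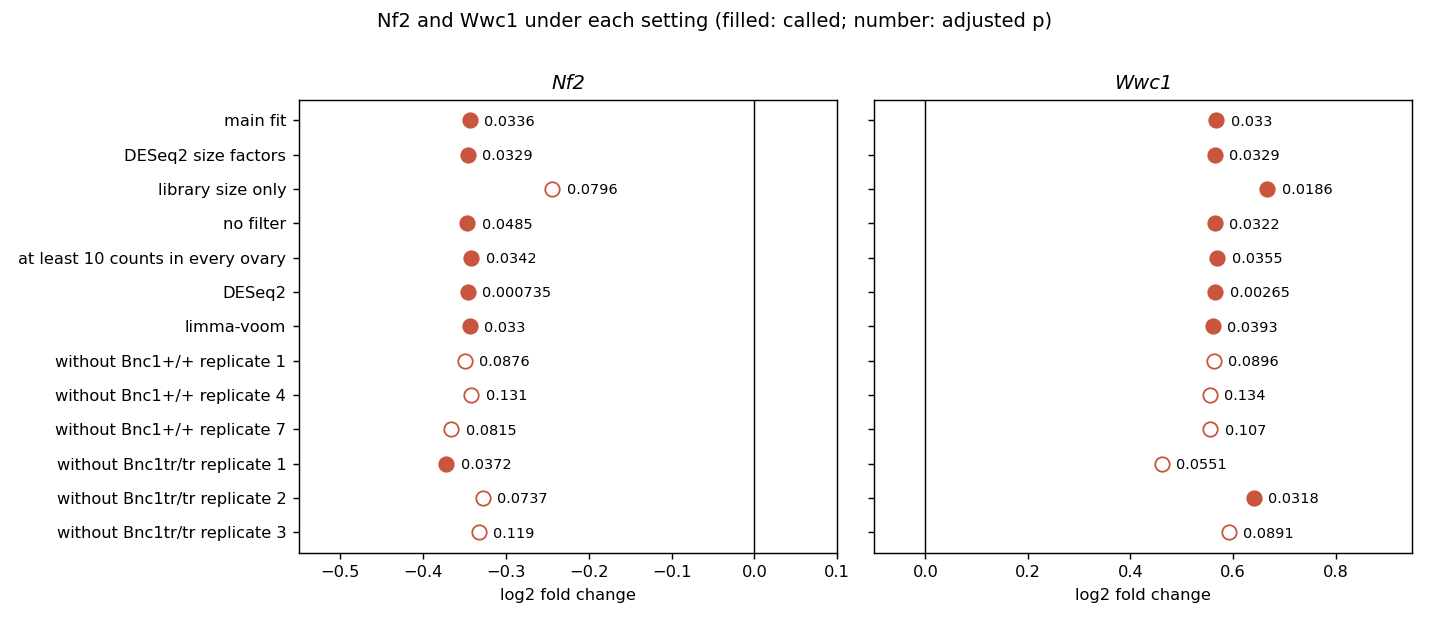
Log2 fold change of Nf2 (left) and Wwc1 (right) under each scaling, filter, tool and left-out ovary, with the adjusted p printed beside each point and filled points for called. Nf2 stays on the negative side, between -0.37 and -0.24, and Wwc1 on the positive side, between 0.46 and 0.67, and most open points are fits with 5 ovaries.

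Frmd6 (ENSMUSG00000048285.9) encodes a FERM domain protein related to Drosophila Expanded, and it acts upstream of the kinases. It stood at 33.2, 34.1 and 51.6 CPM in Bnc1+/+ ovaries and at 28.2, 31.4 and 25 CPM in Bnc1tr/tr ovaries. The genotypes did not overlap, but Bnc1+/+ replicate 7 was far above its 2 partners. The log2 fold change of -0.49 had a standard error of 0.182 and was not called (edgeR, adjusted p = 0.15, unadjusted p = 0.0278). It was -0.26 without Bnc1+/+ replicate 7. Of the 50-base windows of its longest coding transcript, 17.8% were also found in the transcript of Gm5780, so reads from these stretches could belong to either gene.

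The MST kinases and their adaptor showed no difference that passed the test. Stk3 (MST2) stood at 33.5, 32.6 and 29.2 CPM in Bnc1+/+ ovaries and at 30.6, 35.1 and 32.6 CPM in Bnc1tr/tr ovaries, with a log2 fold change of 0.05 (95% interval 0.885 to 1.2 as a fold; edgeR, adjusted p = 0.81). Stk4 (MST1) stood at 59.2, 58.3 and 65.3 CPM and at 71, 58.5 and 56.4 CPM, with a log2 fold change of 0.02 (interval 0.854 to 1.21 as a fold; edgeR, adjusted p = 0.919). The genotypes overlapped for both kinases, and with 3 ovaries a genotype changes within these intervals were not excluded. Sav1, the adaptor that ties MST to LATS kinases, stood at 70.3, 69.4 and 101.5 CPM in Bnc1+/+ ovaries and at 68.5, 84.2 and 76.8 CPM in Bnc1tr/tr ovaries. Bnc1+/+ replicate 7 was again the highest, as for Frmd6. The log2 fold change of Sav1 was -0.07 (edgeR, adjusted p = 0.821) and became 0.12 without that ovary. Of the exon bases of Sav1, 1336 (25.4%) overlap exons of Atl1 on the opposite strand, whose own counts were 196 to 258 per library, and it is not stated whether counting used strand. Of the 50-base windows of the longest coding transcript of Sav1, 52% were also found in Atl1, with both strands searched.

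The LATS kinases phosphorylate YAP and TAZ directly. Lats1 stood at 45.6, 47.9 and 49.1 CPM in Bnc1+/+ ovaries and at 46.3, 43.5 and 37.1 CPM in Bnc1tr/tr ovaries, a log2 fold change of -0.17 (interval 0.757 to 1.04 as a fold; edgeR, adjusted p = 0.35). The genotypes overlapped only through Bnc1tr/tr replicate 1, which lay above 1 Bnc1+/+ ovary. Lats2 stood at 72.8, 75.4 and 90.5 CPM in Bnc1+/+ ovaries and at 109.2, 77.4 and 70.7 CPM in Bnc1tr/tr ovaries. The highest and the lowest of the 6 ovaries were both Bnc1tr/tr, and the log2 fold change was 0.11 (interval 0.819 to 1.42 as a fold; edgeR, adjusted p = 0.741). It was -0.10 without Bnc1tr/tr replicate 1. In the annotation 2955 exon bases of Lats2 (42.4%) are also exons of Gm49361 on the same strand, a name not used in the count table, so counts there could be split or dropped. Of the 50-base windows of the longest coding transcript of Lats2, 56.5% were also found in Gm49361.

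The MOB1 proteins bind the LATS kinases and are needed for their full activity. Mob1a stood at 109.7, 123.2 and 116.7 CPM in Bnc1+/+ ovaries and at 120.3, 105.5 and 111.7 CPM in Bnc1tr/tr ovaries, and the log2 fold change was -0.05 (interval 0.84 to 1.11 as a fold; edgeR, adjusted p = 0.763). Mob1b was the least read of the 10 genes, at 4.54, 5.71 and 6.52 CPM and at 7.01, 5.43 and 5.15 CPM, and the log2 fold change was 0.07 (interval 0.756 to 1.45 as a fold; edgeR, adjusted p = 0.871). Neither gene separated the genotypes. Of the 10 genes, 7 (Stk3 to Mob1b) had a log2 fold change under 0.2 in size, with 95% intervals within 0.735 and 1.45 as a fold.

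**Figure D3:**
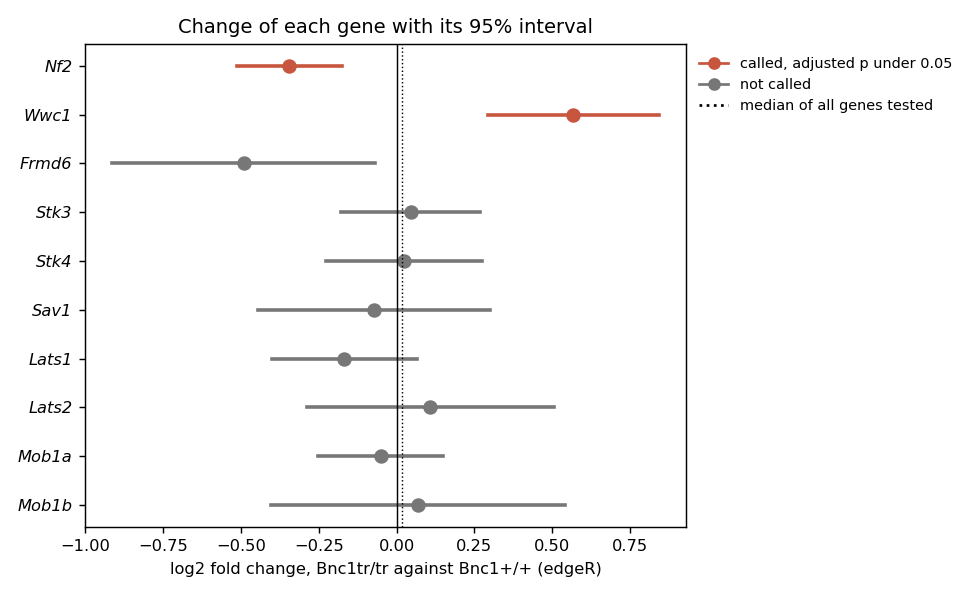
Log2 fold change of each gene, Bnc1tr/tr against Bnc1+/+ (edgeR, 3 against 3 ovaries), with its 95% interval as a line. Nf2 and Wwc1, in orange, lie on opposite sides of 0, Frmd6 is lower with a wide interval, and the 7 kinases, adaptor and MOB1 genes have intervals that hold 0. The dotted line is the median of all genes tested, 0.02.

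Some of the 10 genes varied together among ovaries of the same genotype. Each ovary was compared with the mean CPM of its 2 partners. Bnc1+/+ replicate 7 stood 0.62 above its partners on the log2 scale for Frmd6 and 0.54 above for Sav1. Bnc1tr/tr replicate 1 stood above its partners by 0.56 for Lats2, by 0.41 for Mob1b and by 0.31 for Stk4, and these 3 genes were also highest in that ovary among all 6. Stk4 and Lats2 followed each other over the 6 ovaries with a Pearson's r of 0.98 in log2 CPM, the highest of all pairs of the 10 genes. The lowest was -0.87, for Nf2 and Wwc1, whose genotypes lay apart in opposite directions. With the mean of each genotype taken out, r was 0.88 for Nf2 and Wwc1 and 0.99 for Stk4 and Lats2. By that measure the lowest was -0.82, for Stk3 and Mob1b. All of these are given as a description over ovaries that share each library's depth and cell makeup. Nf2 was the steadiest, with no ovary more than 0.08 from its partners. The theca, granulosa and adipocyte sums were also highest in Bnc1tr/tr replicate 1, and the luteal sum was lowest there (7357 CPM), and their part in these differences was not tested.

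**Figure D4:**
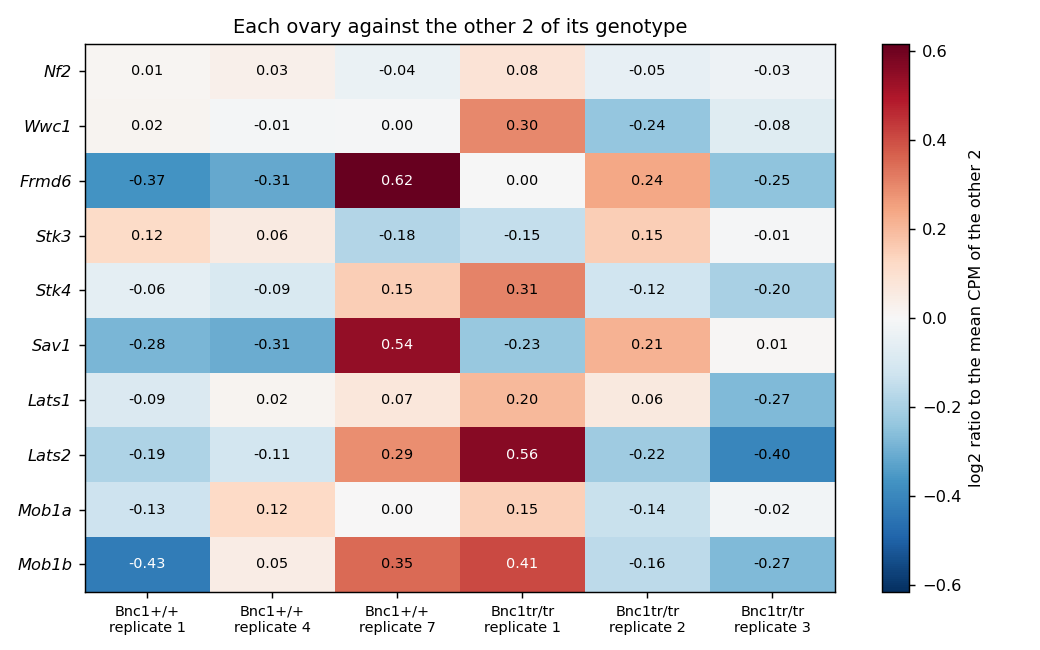
Log2 ratio of each ovary's CPM to the mean CPM of the other 2 ovaries of its genotype, for each of the 10 genes (red, above; blue, below). Frmd6 (0.62) and Sav1 (0.54) are high in Bnc1+/+ replicate 7, Lats2 (0.56), Mob1b (0.41) and Stk4 (0.31) in Bnc1tr/tr replicate 1, and the row of Nf2 is nearly blank.

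To compare levels between genes, CPM was divided by the length of the longest protein-coding transcript. Nf2 had a median of 29.5 CPM per kb over the 6 ovaries (25.2 to 33.3), Sav1 29.1 (27.2 to 40.2) and Mob1a 25.9 (23.9 to 27.9). These 3 genes led, and their ranges overlapped. Nf2 was above Sav1 in 2 of 6 ovaries, Bnc1+/+ replicates 1 and 4. In Bnc1+/+ replicate 7 it was below Sav1 (32.2 against 40.2 CPM per kb). The same held in all 3 Bnc1tr/tr ovaries (25.2 to 26.8 against 27.2 to 33.4 CPM per kb). The order of Nf2 and Sav1 thus also differed among the Bnc1+/+ ovaries. Sav1 was above Mob1a in 4 of 6. Lats2 followed with 14.7 CPM per kb (13.6 to 21), then Stk4 with 11.3 (10.8 to 13.6) and Stk3 with 11.2 (10 to 12). On this length the MST kinases were not set apart, Stk4 being above Stk3 in 2 of 6 ovaries. Frmd6 (6.92 CPM per kb) and Lats1 (6.38 CPM per kb) were also neighbours with overlapping ranges. Wwc1 (3.2 CPM per kb, 2.73 to 4.64) and Mob1b (0.621 CPM per kb, 0.506 to 0.781) were the lowest in each of the 6 ovaries. With the length of all exons instead, Mob1a came first, Nf2 next (median 20.4 CPM per kb) and Sav1 after it (14). Lats1 passed Stk3 and Frmd6. The MST kinases were apart on that length, with medians of 10 CPM per kb for Stk4 and 5.3 for Stk3.

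Pairs of paralogs showed which copy gave most of the reads. Mob1a gave 95.4% ± 0.671 of the Mob1a and Mob1b reads in Bnc1+/+ ovaries and 95.1% ± 0.551 in Bnc1tr/tr ovaries (SD, n = 3 each; exact permutation test, two-sided, p = 0.5, adjusted over 3 pairs 0.7). Lats1 gave 38.5%, 38.9% and 35.2% of the Lats1 and Lats2 reads in Bnc1+/+ ovaries and 29.8%, 36% and 34.4% in Bnc1tr/tr ovaries. The means were 4.12 percentage points apart, with overlapping ovaries (exact permutation test, two-sided, p = 0.2, adjusted 0.6). Stk3 gave 34.3% ± 2.95 and 34.8% ± 4.05 of the Stk3 and Stk4 reads (SD, n = 3 each; exact permutation test, p = 0.7, adjusted 0.7). The smallest p that 3 against 3 ovaries can give is 0.1. Per kb of the longest coding transcript, a scale added after the data were seen, the shares in Bnc1+/+ and Bnc1tr/tr were 97.7% and 97.5% for Mob1a, 30.2% and 26.6% for Lats1, and 48.3% and 48.8% for Stk3. By this length the MST kinases were nearly even, where by reads Stk4 was ahead. With the length of all exons Stk4 was ahead as well, with medians of 10 CPM per kb for Stk4 and 5.3 for Stk3.

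The balance of Nf2 and Wwc1 can be read within a library, where scaling does not enter. This ratio was chosen after their values were seen. Each read of Wwc1 was matched by 12.4, 12.7 and 12.2 reads of Nf2 in Bnc1+/+ ovaries and by 6.02, 7.23 and 6.76 reads in Bnc1tr/tr ovaries. The ratio in Bnc1tr/tr was 0.536 of that in Bnc1+/+, and no ovaries overlapped. This lack of overlap was fixed in advance, since the CPM of both genes already lay apart in opposite directions. Against the other members, Nf2 reads per read were lower in all 3 Bnc1tr/tr ovaries for 4 of 9 genes (Wwc1, Stk3, Stk4 and Mob1a), where 51.7% of all genes in the denominator gave the same. Wwc1 reads per read were higher for 9 of 9, where the share over all genes was 64.7%. Per read of Mob1a, Nf2 gave 1.42, 1.27 and 1.3 reads in Bnc1+/+ ovaries and 1.05, 1.13 and 1.08 reads in Bnc1tr/tr ovaries. Per read of Lats1, the ratio of Nf2 overlapped between genotypes (3.09 to 3.41 against 2.73 to 3.24).

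The question was then whether other Hippo genes differed. Over 5 lists of upstream activators, inhibitors, relatives of the members, effectors and YAP target genes, 7 of 87 genes tested were called (8.05%, against 7.06% of all genes), 5 lower and 2 higher, with a median log2 fold change of 0.01. These lists were drawn up with earlier results of the same ovaries known. Among 27 upstream activators, 1 was called. Rassf5, which encodes a Ras association domain protein that binds MST kinases, stood at 16.8, 16 and 15.4 CPM in Bnc1+/+ ovaries and at 32.8, 20.1 and 27 CPM in Bnc1tr/tr ovaries (log2 fold change 0.73, edgeR, adjusted p = 0.0451). Among 20 inhibitors, 1 was called. Mark4, a kinase gene, stood at 120.7, 149 and 127.6 CPM and at 85.6, 99.3 and 90.3 CPM (log2 fold change -0.53, edgeR, adjusted p = 0.0284). Among 13 relatives, 1 was called. Mob3b, a MOB family gene, stood at 7.43, 5.38 and 4.9 CPM and at 11.2, 11 and 9.06 CPM (log2 fold change 0.82, edgeR, adjusted p = 0.0458). None of the groups of these 3 genes overlapped. With 1 ovary left out, Rassf5 stayed called in 1 of 6 fits, Mark4 in 2 of 6 and Mob3b in 1 of 6, the lost fits including those without Bnc1+/+ replicate 4 or 7 or Bnc1tr/tr replicate 1 or 3 for each gene, Bnc1+/+ replicate 1 for Rassf5 and Bnc1tr/tr replicate 2 for Mob3b (adjusted p up to 0.165, 0.114 and 0.181). Rassf5 was also not called with limma-voom (adjusted p = 0.0589).

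The factors that the chain acts on did not differ by this test. Of the 9 effector genes tested, edgeR called 0 and 1 had an unadjusted p under 0.05. The count was 1 with DESeq2, with scaling by library totals, with no filter, with at least 10 counts in every ovary and without Bnc1tr/tr replicate 2. Yap1 stood at 128.6, 129.4 and 135.4 CPM in Bnc1+/+ ovaries and at 162.6, 134.3 and 135.1 CPM in Bnc1tr/tr ovaries (log2 fold change 0.13, edgeR, adjusted p = 0.442), and only Bnc1tr/tr replicate 1 was clearly above the rest. Wwtr1 (TAZ) had a log2 fold change of -0.01 (0.09 with scaling by library totals; edgeR, adjusted p = 0.983), and Tead1, Tead2, Tead3 and Tead4 had log2 fold changes of 0.14, 0.03, 0.02 and -0.27, with adjusted p between 0.549 and 0.94. Vgll1, which encodes a TEAD-binding cofactor and is named because its values stood out, was at 0.544 to 0.724 CPM in Bnc1+/+ and 0.962 to 2.7 CPM in Bnc1tr/tr, just short of a call (log2 fold change 1.74, edgeR, adjusted p = 0.0512).

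Of the 18 YAP target genes tested, 4 were called (22.2%), and all 4 were lower in Bnc1tr/tr, where 4.19% of all genes were. The median of the list was -0.03, with 9 genes negative and 9 positive. Nt5e, which encodes the cell surface nucleotidase CD73, stood at 6.5, 6.59 and 6.76 CPM in Bnc1+/+ ovaries and at 1.96, 3.19 and 2.85 CPM in Bnc1tr/tr ovaries (log2 fold change -1.31, edgeR, adjusted p = 0.0141). Igfbp3, an IGF-binding protein gene, stood at 51.7, 43.2 and 42.4 CPM and at 26.8, 21.4 and 21.5 CPM (log2 fold change -0.98, edgeR, adjusted p = 0.0059) and remained called without any 1 of the 6 ovaries. Asap1, which encodes an activator of Arf GTPase turnover, had a log2 fold change of -0.66 (edgeR, adjusted p = 0.0319), and Dock5, a Rac exchange factor gene, of -0.52 (adjusted p = 0.0344). The targets used most often as readouts did not separate, with a log2 fold change of 0.21 for Ctgf and 0.02 for Cyr61 (edgeR, adjusted p = 0.811 and 0.914). Ctgf was highest in Bnc1tr/tr replicate 1 (185.7 CPM, against 54.9 and 76.2 CPM in its partners). Without Bnc1+/+ replicate 4 or 7 only 1 of the YAP targets was called, and without Bnc1tr/tr replicate 2 or 3 there were 2. Luteal and endothelial marker sums were lower in the same ovaries, and their part in the target genes was not tested.

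**Figure D5:**
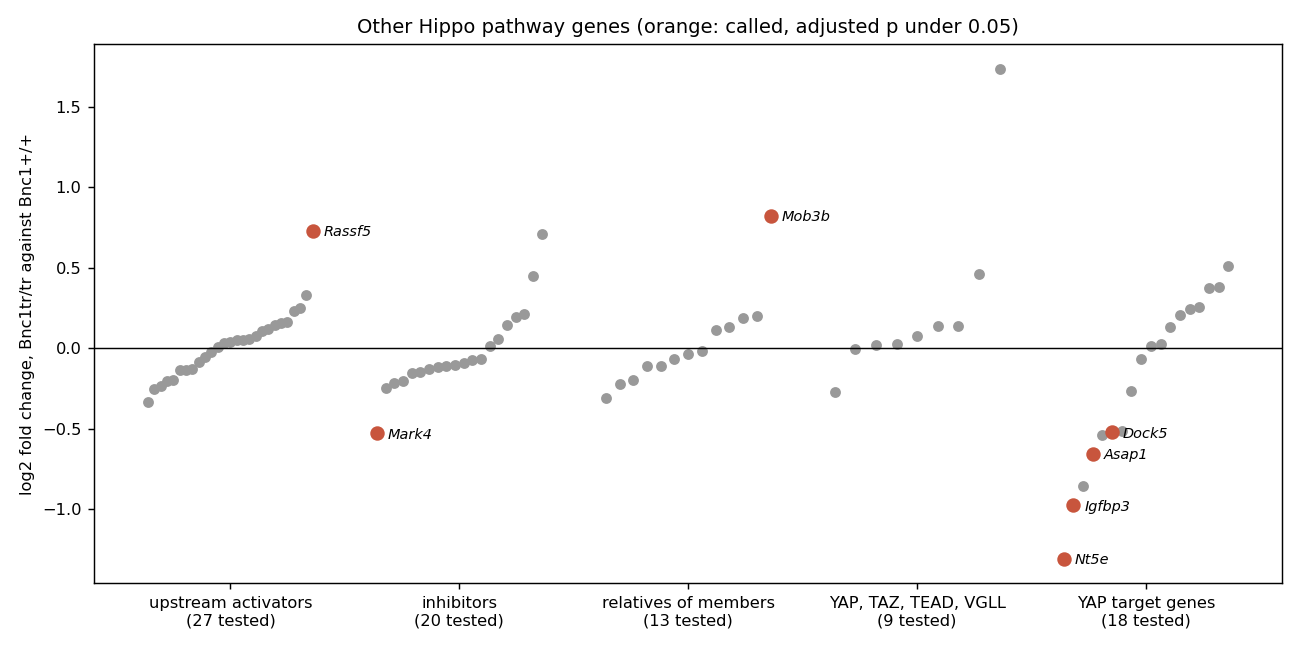
Log2 fold change, Bnc1tr/tr against Bnc1+/+, of each tested gene in 5 lists of Hippo genes, ordered within each list (orange, called; grey, not called). Of the 87 genes 7 are called, 4 of them YAP target genes that lie below 0, and the grey point at 1.74 in the effector list is Vgll1.

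Tfrc and Acsl4 were read beside Nf2 because the study asked about them downstream of YAP. Tfrc, the transferrin receptor gene, stood at 35.4, 48.5 and 42.8 CPM in Bnc1+/+ ovaries and at 19.5, 22.1 and 26.1 CPM in Bnc1tr/tr ovaries (log2 fold change -0.90, edgeR, adjusted p = 0.0147). Acsl4, an acyl-CoA synthetase gene for long polyunsaturated fatty acids, stood at 172.6, 188.2 and 188.4 CPM and at 39, 86.1 and 70.2 CPM (log2 fold change -1.49, edgeR, adjusted p = 0.0153). Both were lower in every Bnc1tr/tr ovary. Neither was called without Bnc1+/+ replicate 4 or 7 (adjusted p between 0.0607 and 0.0844), with log2 fold changes of -0.80 and -0.90 for Tfrc and of -1.48 in both fits for Acsl4. The part of the luteal and endothelial sums in these falls was not tested.

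Among the 87 wider-list genes at 1 CPM or more on average, those whose log2 CPM most resembled that of Nf2 over the 6 ovaries were Igfbp3 (Pearson's r = 0.98), Stk25 (0.98) and Dock5 (0.93). The ovaries fall into the 2 genotypes for all 4 genes, so these values mostly describe the shared difference between genotypes. Stk25, a kinase of the wider MST family, stood at 223.2, 229.4 and 230.1 CPM in Bnc1+/+ ovaries and at 202.7, 193.5 and 198.1 CPM in Bnc1tr/tr ovaries. The genotypes did not overlap, but its log2 fold change of -0.20 did not pass the test (edgeR, adjusted p = 0.142).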

How the data were processed

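Total RNA of 3 Bnc1+/+ and 3 Bnc1tr/tr ovaries was extracted with TRIzol and sequenced single-end on the Ion Proton. The authors deposited whole-number read counts per gene for the 6 libraries, with no normalization. The aligner, the counting tool and its strand setting are not given in the sources used here. The submitters' processing notes name the builds mm10 and, with no role given, Sscrofa10.2. From the counts, TMM-scaled CPM, log2 fold changes and quasi-likelihood tests were computed with edgeR 4.0.16 (R 4.3.3; filterByExpr, minimum count 10; 19423 of 44788 genes; Benjamini-Hochberg adjustment, threshold 0.05). DESeq2 1.42.0, limma 3.58.1 (voom), other scalings and filters, and leaving out each ovary were alternatives. Positions and lengths were from GENCODE M21 (GRCm38), promoters from RefSeq.

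The members and all gene lists were chosen with earlier results of these data known. All 10 members were named, with Bnc1, Tfrc, Acsl4, Yap1, Wwtr1 and Tead1 to Tead4; per wider list, up to 3 called genes of at least 1 CPM with the largest fold changes; and the 3 wider-list genes most like Nf2. Dock5, Vgll1, Ctgf, Cyr61 and Ankrd1 were added after their values were seen. The study calls the samples biological replicates, and litters are not labelled. How far spread between ovaries or depth limited the precision was not tested.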

Additional observations from a re-analysis of the deposited data

How the results depend on the processing

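The directions of Nf2, Wwc1, Frmd6 and Lats1 were kept under all 12 alternatives, in which Nf2 was called in 6 and Wwc1 in 7. The number of the 10 genes called was 2 except with scaling by library totals alone (1), at an unadjusted p under 0.05 (3) and with 1 ovary left out (0 to 1). Leaving out an ovary also left 320 to 1282 of all genes called and 1 to 6 of the wider Hippo genes, and such fits have fewer samples. DESeq2 called 2420 genes in all, and 4698 had an unadjusted p under 0.05. Scaling by library totals turned Sav1 (0.025), Mob1a (0.049) and Wwtr1 (0.094) positive, with none called. With 1 ovary left out, the log2 fold changes of genes that were never called crossed 0, from -0.02 to 0.092 for Stk3, -0.086 to 0.088 for Stk4, -0.18 to 0.12 for Sav1, -0.10 to 0.23 for Lats2, -0.081 to 0.18 for Mob1b, -0.091 to 0.068 for Wwtr1, -0.031 to 0.28 for Tead1, -0.14 to 0.16 for Tead2 and -0.037 to 0.067 for Tead3. The difference in the share of Stk3 ran from -1.23 to 2.8 percentage points. The cause was not tested. No paired analysis was possible because the litters of the compared littermates are not labelled and the genotypes share only replicate number 1. Mob1b had the fewest counts of the 10 genes (122 to 197 per library).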
